A study of Mus musculus with 6 samples.

Results

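The VEGF family genes were Vegfa, Vegfb, Vegfc and Pgf, which encode secreted ligands, Flt1, Kdr and Flt4, which encode receptor tyrosine kinases, and Nrp1 and Nrp2, which encode the neuropilin co-receptors. These 9 genes were chosen by name as the canonical ligands and receptors, and all 9 were found among the 55353 rows of the gene count table and passed the count filter that left 14987 genes to test. They were measured by RNA sequencing of macrophages sorted from mouse calf muscle 3 days after hindlimb ischemia, in which the blood supply of a leg is interrupted. There were 3 libraries labelled WT and 3 labelled pfkfb3-ko (KO), all from mice of the strain given as 129S1/Sv * 129X1/SvJ * C57BL/6 * CBA. Per the labels' protocols, 1 mg of tamoxifen was given on 5 days in a row, with a wash-out of 7 days or more, and the protocol is the same for both groups. Each library came from 7000 to 50000 sorted cells. Pfkfb3 encodes an enzyme that promotes glycolysis. The design text places its deletion in endothelial cells (EC), which line blood vessels; no cell type stands in the genotype label. The labels used here give neither the Cre driver nor the age of the mice. Nor do they state that each library is a different mouse, and the p-values below therefore reflect library-to-library spread that could be partly technical. Group means are given ± SD over the 3 libraries of a group.

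VEGF-A drives the sprouting and permeability of blood vessels, mainly through VEGFR2, the product of Kdr. VEGFR1, the product of Flt1, binds VEGF-A, VEGF-B and placental growth factor (the product of Pgf) with a weaker kinase signal and also exists as a secreted decoy, while VEGFR3, the product of Flt4, binds VEGF-C and serves lymphatic vessels. The neuropilins hold VEGF at the cell surface and also bind class 3 semaphorins. In injured muscle macrophages are a known source of VEGF-A, whereas the receptor kinases are best known from endothelial cells, with Flt1 also present on monocytes and macrophages. The libraries are bulk RNA, so fewer cells of a type and less RNA per cell cannot be told apart.

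Flt1 was the single member that changed. It was lower in KO by 4.74-fold (95% interval 2.45 to 9.15), while Kdr, the other main VEGF-A receptor, was near equal in the group means. Flt1 was called in 12 of 17 alternative fits, and with a sex term Kdr was called lower in its place. Of 29 tested endothelial marker genes 8 fell too, against 2.25% of all tested genes. No difference was detected in the ligands, of which Vegfa varied more among the WT libraries than between the groups, or in the neuropilins, which were the most abundant members per exonic length. A gene is said to have changed where the Benjamini-Hochberg adjusted p of edgeR's quasi-likelihood test, over all 14987 genes tested, was under 0.05. By this rule 1 of 9 members fell and none rose, against 6.64% of all tested genes called in either direction, 2.25% lower in KO and 4.39% higher. Among the members 1 had an unadjusted p under 0.05, against 3516 of all 14987 tested genes. DESeq2 called the same member alone, and 12.5% of all tested genes. The median log2 fold change of the 9 members was -0.01, and that of all genes was 0.01.

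Library totals ran from 18853712 to 29060584 counts, and counts in protein-coding genes from 9168139 to 12407034 in KO and from 16976422 to 22726111 in WT, so low genes were measured less precisely in KO. A single small RNA row, Gm23935, took 13.7% to 16.8% of the WT counts and 31.6% to 46.3% of the KO counts. Levels are therefore given in CPM relative to library sizes scaled by TMM factors, which were 1.23 to 1.26 in WT and 0.713 to 0.892 in KO. KO replicates 1 and 2 had Xist at 154 and 171 CPM, the pattern of female cells, and the other 4 libraries had Xist under 0.47 CPM and Y-linked genes at 134 to 152 CPM. Sex type and genotype are thus partly confounded, and KO replicate 3 is the single KO library that matches the WT libraries in sex type. Pfkfb3 was at 70.9, 101 and 82.4 CPM in WT and 55.5, 59.3 and 160 CPM in KO. It did not pass the test (edgeR adjusted p = 0.89) and checks nothing about the labels if the deletion is endothelial. The sorted cells carried macrophage markers at high levels, with the summed level of 15 such genes at 9977 to 16070 CPM in WT and 15420 to 17016 CPM in KO. Of these 15, 4 rose and 1 fell, against 4.39% of all tested genes higher and 2.25% lower. Csf1r, the receptor for macrophage colony-stimulating factor, rose from 852 ± 101 to 1765 ± 154 CPM and Cd68, a lysosomal glycoprotein, fell from 793 ± 78.9 to 475 ± 75.4 CPM. With each library left out in turn, these calls held in 3 and 1 of 6 fits, with adjusted p of up to 0.075 and 0.13. Adgre1 (F4/80) and Mertk, an apoptotic cell receptor, did not pass the test.

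Vegfa (ENSMUSG00000023951, GRCm38 chromosome 17, 46016993 to 46032369), the main angiogenic ligand, was at 89.1, 21.7 and 29.4 CPM in WT replicates 1 to 3. In KO replicates 1 to 3 it was at 32.1, 42.2 and 45.6 CPM. WT replicate 1 was the highest of all libraries, and the other WT libraries were the lowest, so the KO values lay inside the WT range. The means were 46.7 ± 36.9 and 40.0 ± 7.02 CPM, a log2 fold change of -0.22 (95% interval -1.26 to 0.81, edgeR adjusted p = 0.82). The sign rests on WT replicate 1: leaving it out gave 0.64 on the log2 scale (adjusted p = 0.13). The same library was also the highest for Flt1, for Cdh5 and for the summed endothelial markers described further on.

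Vegfb (chromosome 19, 6982473 to 6987651), a ligand of VEGFR1 best known for effects on fatty acid uptake and the heart, was the steadiest ligand. It was at 22.3, 17.7 and 14.2 CPM in WT and 19.9, 19.4 and 15.2 CPM in KO, with overlapping groups. Its log2 fold change was 0.01, with a 95% interval of -0.45 to 0.46, the narrowest among the ligands. The count of Vegfa relative to Vegfb, which needs no scaling, was 3.99, 1.23 and 2.07 in WT and 1.62, 2.18 and 3.00 in KO, again with overlap.

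Vegfc (chromosome 8, 54077606 to 54187096), the lymphangiogenic ligand, rested on 19 to 32 counts per WT library and 11 to 36 per KO library. Its level was 1.24, 0.52 and 0.70 CPM in WT and 1.92, 1.28 and 0.71 CPM in KO. Pgf (chromosome 12, 85166635 to 85177790), which signals through VEGFR1, had 31, 34 and 60 counts in WT and 7, 16 and 9 in KO. That gave 1.20, 0.93 and 1.76 CPM in WT and 0.37, 1.14 and 0.58 CPM in KO, and KO replicate 2 lay above WT replicate 2. The log2 fold changes were 0.69 for Vegfc (95% interval -0.49 to 1.86, adjusted p = 0.47) and -0.92 for Pgf (95% interval -2.09 to 0.26, adjusted p = 0.33). In these low ligands, with at most 60 counts per library, neither a clear rise nor a clear fall was detected. Vegfd, the remaining VEGFR3 ligand, had 0 to 6 counts per library and was not tested.

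**Figure D1:**
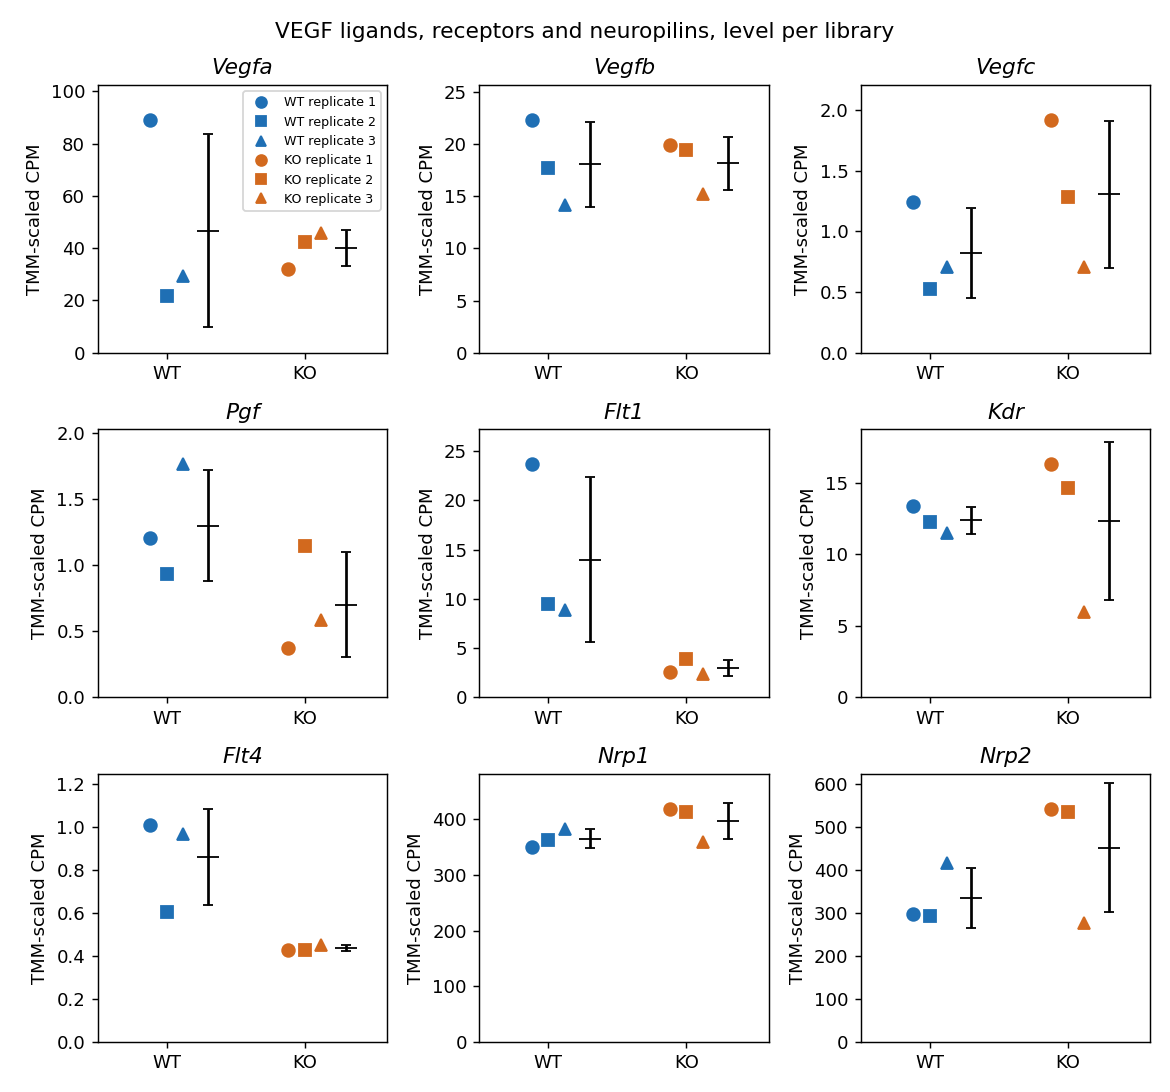
TMM-scaled CPM of the 9 VEGF family genes in each library, with the y axis from 0, WT in blue, KO in orange and a marker shape per replicate; the black bar and whiskers give the group mean and SD (n = 3). Flt1 and Flt4 are the panels in which all KO points lie below all WT points, and in the Vegfa panel WT replicate 1 stands at 89.1 CPM above all others.

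Flt1 (ENSMUSG00000029648, chromosome 5, 147561604 to 147726011) was at 23.7, 9.43 and 8.86 CPM in WT and at 2.56, 3.92 and 2.39 CPM in KO. Every KO library lay below every WT library, although WT replicate 1 was far above its group. Behind these levels stood 610, 344 and 302 counts in WT and 48, 55 and 37 in KO. The means were 14.0 ± 8.38 and 2.96 ± 0.842 CPM, a log2 fold change of -2.24 (SE 0.42, edgeR adjusted p = 0.019). Flt1 was lower under all 17 alternatives and called in 12 of them. The lowest edgeR adjusted p, 1.7e-15, came from the fit with no count filter, where the SE was 0.26 in place of 0.42. DESeq2 gave an adjusted p of 3.3e-06. The Flt1 call was lost without KO replicate 1 (edgeR adjusted p = 0.069) or KO replicate 2 (0.055) and with a sex term (0.061). Without WT replicate 1 the log2 fold change was -1.64. In KO replicate 3 alone, the library that shares the sex type of WT, it was -2.60 (adjusted p = 0.10; KO replicate 3 is assumed to vary like the WT libraries). The table sums all transcripts of a gene, so membrane-bound and secreted VEGFR1 are not told apart.

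Kdr (ENSMUSG00000062960, chromosome 5, 75932827 to 75978458) was at 13.4, 12.3 and 11.5 CPM in WT and at 16.3, 14.6 and 6.00 CPM in KO. KO replicates 1 and 2 were above all WT libraries and KO replicate 3 was below them. The means were 12.4 ± 0.951 and 12.3 ± 5.53 CPM (log2 fold change -0.01, 95% interval -0.73 to 0.72, adjusted p = 0.99). Since KO replicates 1 and 2 are the libraries of female type, a sex term left KO replicate 3 to carry the genotype effect, and Kdr was then called lower (log2 fold change -1.05, adjusted p = 0.030). With KO replicates 1 and 2 left out the value was -1.10 (adjusted p = 0.080), and without KO replicate 3 it was 0.33 (adjusted p = 0.19).

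Flt4 (chromosome 11, 49609263 to 49652739) was near the limit of detection, with 26, 22 and 33 counts in WT and 8, 6 and 7 in KO. Its level was 1.01, 0.60 and 0.97 CPM in WT and 0.43, 0.43 and 0.45 CPM in KO, so the groups did not overlap. The log2 fold change of -0.97 (95% interval -2.02 to 0.08) did not pass the test (adjusted p = 0.25). Non-overlap was found for 2 of 9 members, Flt1 and Flt4, both lower in KO. Over all tested genes 14.7% had every KO library below every WT library and 31.5% did not overlap in either direction.

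The starts of Flt1 and Kdr are shown because both genes encode VEGF-A receptors and lie on the minus strand of chromosome 5. Flt1 alone was called in the fit with no covariate, and Kdr alone with a sex term. Whether the promoter letters bear on these calls was not tested. Each line is the RefSeq window of GRCm38.p6 from 250 bases before to 50 bases after the gene start, written along the transcribed strand. The windows are chr5:147725962-147726261 for Flt1 and chr5:75978406-75978705 for Kdr. Capitals mark matches on either strand to TGACGTCA (the cyclic AMP response element, CRE), GGAAGT (a sequence around the ETS core) and TATAAA (the TATA box).
Flt1: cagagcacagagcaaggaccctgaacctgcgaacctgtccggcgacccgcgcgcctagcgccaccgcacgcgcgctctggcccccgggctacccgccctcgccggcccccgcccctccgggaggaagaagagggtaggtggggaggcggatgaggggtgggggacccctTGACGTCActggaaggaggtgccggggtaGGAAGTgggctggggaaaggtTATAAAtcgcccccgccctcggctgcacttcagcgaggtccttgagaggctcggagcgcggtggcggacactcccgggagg
Kdr: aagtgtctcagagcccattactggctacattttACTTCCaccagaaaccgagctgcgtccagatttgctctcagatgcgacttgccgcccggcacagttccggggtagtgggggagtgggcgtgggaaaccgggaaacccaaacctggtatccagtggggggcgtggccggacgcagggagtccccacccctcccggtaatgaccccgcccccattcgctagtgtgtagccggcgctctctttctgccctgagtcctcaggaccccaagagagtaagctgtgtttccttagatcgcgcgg
The Flt1 window held 1 CRE, which begins 81 bases before the start, 1 ETS match at 52 bases before it and 1 TATA box at 31 bases before it. In the human FLT1 promoter a CRE and a nearby ETS site are known elements. The Kdr window held no CRE and no TATA box, and 1 ETS match on the opposite strand, 217 bases before the start. Among 32851 promoter windows of the same length, 1.79% held TGACGTCA, 13.6% held TATAAA and 23.8% held GGAAGT. The GC box GGGCGG, not in capitals above, had 3 matches in Flt1 and 2 in Kdr, and 35.7% of windows held it. The hypoxia-inducible factor core ACGTG, found in 19.6% of windows, was in none of the 9 member windows used. Sequence more than 250 bases before the start was not searched, and Vegfa and Pgf each had 2 windows, of which 1 was used. A match is a string of letters and no evidence of binding.

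Of 29 tested endothelial marker genes other than the receptors, 8 fell, none rose and the rest did not pass the test, against 2.25% of all tested genes lower in KO and 4.39% higher. Their median log2 fold change was -1.79 against 0.01 over all genes. For 20 of the 29 every KO library lay below every WT library, against 14.7% of all tested genes. Their summed level, over the 31 genes in the table, was 298, 182 and 174 CPM in WT and 131, 143 and 99.4 CPM in KO. The groups did not overlap (two-sided exact permutation test, p = 0.1, and no smaller p is possible with 3 libraries a group). Cdh5, the adhesion molecule of endothelial junctions, fell from 20.4 ± 8.74 to 4.92 ± 2.08 CPM (adjusted p = 0.020). Pecam1, which leukocytes express too, fell from 13.7 ± 7.14 to 3.95 ± 1.32 CPM (adjusted p = 0.032). Tek, the angiopoietin receptor, fell from 2.49 ± 0.871 to 0.438 ± 0.329 CPM (adjusted p = 0.045). Cldn5, a tight junction gene, was at 0.47 to 1.47 CPM in WT and at 0 to 0.45 CPM in KO and did not pass the test. In KO, 4 of the 31 genes were at 0 in at least 1 library, namely Cldn5, Emcn, Sox17 and Ly6c1, and 14 were under 1 CPM in all 3. The calls of Cdh5, Pecam1 and Tek held in 4, 2 and 1 of the 6 fits that left out a library, with adjusted p of up to 0.069, 0.11 and 0.12.

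Ratios of counts within a library, chosen after the values were seen, set the receptors beside these markers with no scaling. Flt1 per Cdh5 was 0.777, 0.630 and 0.566 in WT and 0.414, 0.647 and 0.949 in KO, so the groups overlapped and the means were 0.658 ± 0.108 and 0.670 ± 0.268. Kdr per Cdh5 was 0.441, 0.819 and 0.736 in WT and 2.64, 2.41 and 2.38 in KO. All KO libraries lay above all WT libraries, KO replicate 3 included (0.665 ± 0.199 against 2.48 ± 0.139). Flt1 per Kdr was 1.76, 0.770 and 0.768 in WT and 0.157, 0.268 and 0.398 in KO, with no overlap. Flt4 per Cdh5, which rests on 6 to 33 Flt4 counts a library, was 0.0331, 0.0403 and 0.0618 in WT and 0.0690, 0.0706 and 0.179 in KO, also with no overlap and with KO higher. Because these ratios were picked knowing that Cdh5 fell, they restate the levels above and carry no test. Against Pecam1 the pattern was alike for Kdr, at 0.611, 1.36 and 1.12 in WT and 3.19, 3.47 and 2.38 in KO. Eng and S1pr1 were the only 2 of the 29 genes with a positive log2 fold change, at 0.19 and 0.16, and neither passed the test. Macrophages express both genes too, but leukocytes also express Pecam1, which fell. Whether such expression bears on the signs was not tested. Kdr per Eng was 0.457, 0.393 and 0.435 in WT and 0.464, 0.366 and 0.245 in KO, with overlap. In which cells Flt1 and Kdr were transcribed was not tested.

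**Figure D2:**
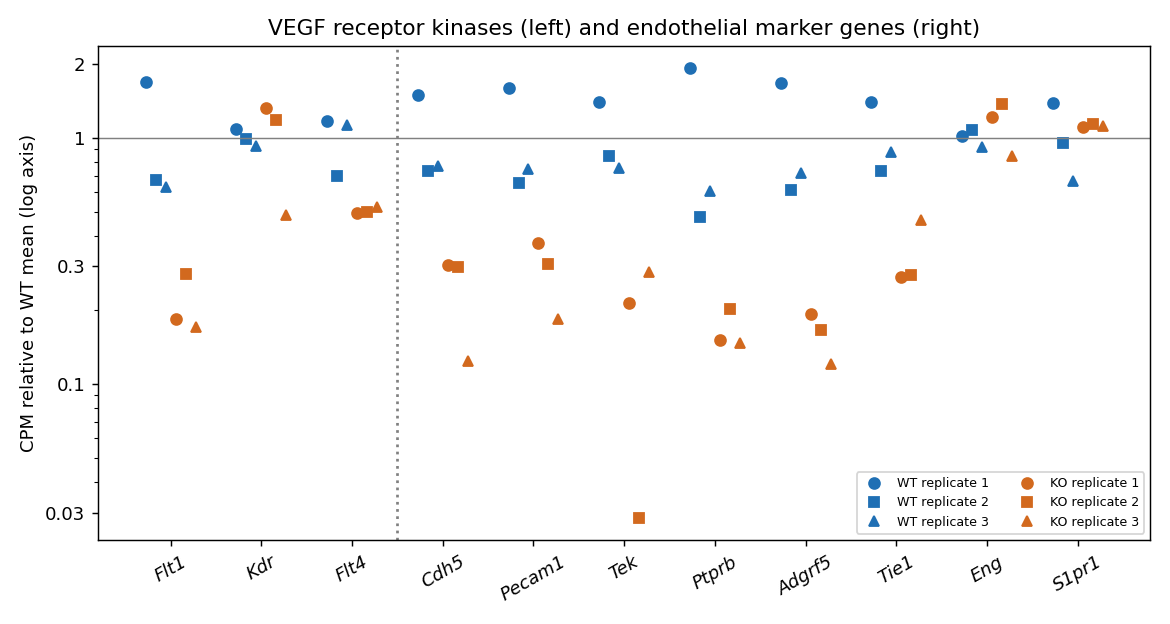
CPM of the 3 VEGF receptor kinases, left of the dotted line, and of 8 endothelial list genes, right of it, each divided by the gene's WT mean, on a log axis; WT is blue and KO orange, with a marker shape per replicate. All KO points of Flt1 lie below all WT points, as they do for Cdh5, Pecam1, Tek, Ptprb, Adgrf5 and Tie1, while for Kdr, Eng and S1pr1 the groups overlap.

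Flt1 separated the groups and Kdr did not, so the genes nearest to them in pattern were bound to differ. Over the 6 libraries and 10162 candidate genes with a mean of at least 50 counts, the 5 genes whose log2(CPM + 1) had the highest Pearson correlation with that of Flt1 were Ace, Tspan5, Tnip3, Prkx and Plpp3, with r of 0.990 to 0.996. For Kdr they were Aurkaip1, Ddost, Tnfrsf1a, Desi2 and Anxa4 (r of 0.994 to 0.997). For Vegfa they were Zfp747, Tns1, Naa30, Mamld1 and Ubxn2a (r of 0.956 to 0.986). Endothelial list genes made up 1 of the 20 nearest genes of Flt1 and none of the 20 nearest of Kdr, where 15 of the candidates were on that list. These are descriptions over 6 points that share 2 groups and their depths.

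Nrp1 (ENSMUSG00000025810, chromosome 8, 128358604 to 128503363), co-receptor for VEGF-A and semaphorin 3A, was at 350, 363 and 384 CPM in WT and at 419, 413 and 360 CPM in KO. The groups overlapped through KO replicate 3, and the log2 fold change was 0.12 (95% interval -0.17 to 0.41, adjusted p = 0.62), the narrowest interval of the 9 members. Its exons share 80 bases with the microRNA gene Mir1903 on the same strand. Nrp2 (ENSMUSG00000025969, chromosome 1, 62703285 to 62818695), co-receptor for VEGF-C and semaphorin 3F, was at 298, 292 and 415 CPM in WT and at 543, 536 and 278 CPM in KO. KO replicates 1 and 2 were above every WT library and KO replicate 3 was the lowest of all, the same arrangement as for Kdr. The log2 fold change of Nrp2 was 0.43 (95% interval -0.16 to 1.03, adjusted p = 0.36). Without KO replicate 3 it was 0.69 and called higher (adjusted p = 0.041), and with KO replicates 1 and 2 left out it was -0.33 (adjusted p = 0.45). The count of Nrp1 per Nrp2 was 1.17, 1.24 and 0.923 in WT and 0.772, 0.770 and 1.30 in KO.

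**Figure D3:**
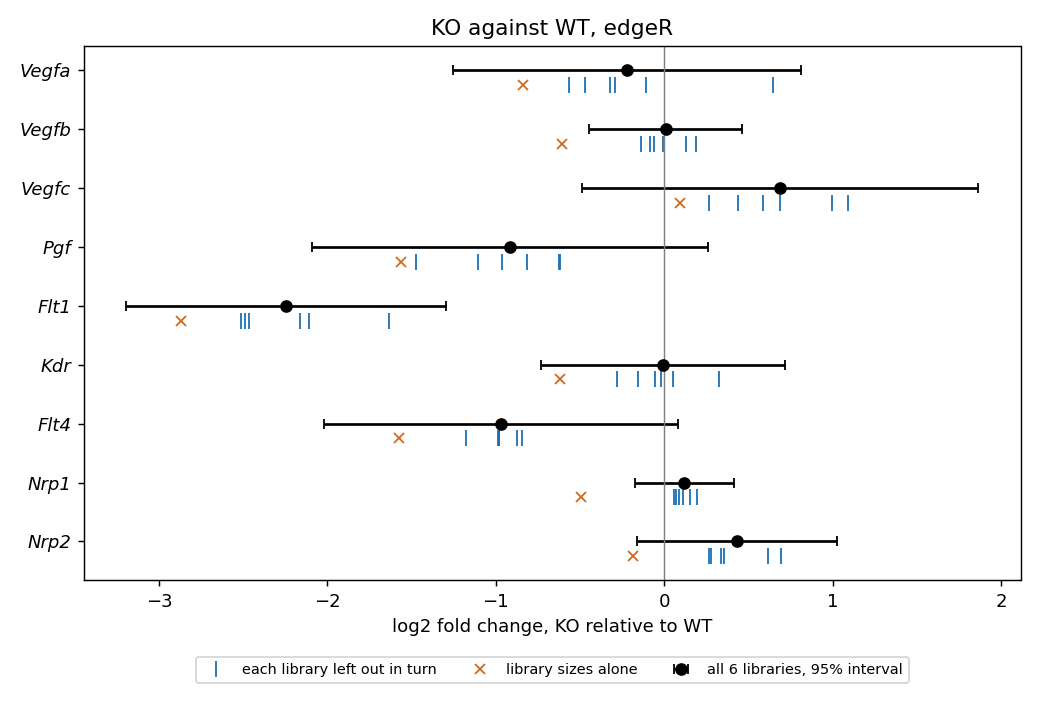
Log2 fold change of each member, KO relative to WT, from edgeR: black points and whiskers are the estimate and 95% interval over all 6 libraries, blue ticks leave out each library in turn, and orange crosses use library sizes with no scaling factor. The interval of Flt1 alone lies wholly on one side of 0, from -3.19 to -1.29; unscaled library sizes move every member to the left, and with them the median over all genes was -0.60.

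Levels of different genes were compared per kb of merged GENCODE M21 exons. Nrp1 and Nrp2 led with means over the 6 libraries of 39.0 and 33.2 CPM per kb, above 94.8% and 93.6% of 14710 tested genes with a length. Vegfb and Vegfa followed at 11.3 and 10.1 CPM per kb, then Kdr at 1.37, Flt1 at 0.627, Vegfc at 0.434, Pgf at 0.344 and Flt4 at 0.0787. The order of Flt1, Vegfc and Pgf is that of neither group alone. In WT Flt1 was at 1.04 ± 0.621, Pgf at 0.447 ± 0.146 and Vegfc at 0.336 ± 0.153 CPM per kb, and in KO Vegfc was at 0.532 ± 0.247, Pgf at 0.241 ± 0.137 and Flt1 at 0.219 ± 0.0624 CPM per kb. Among neighbours in the pooled order, library ranges did not overlap between Nrp2 and Vegfb, between Vegfa and Kdr or between Pgf and Flt4, and all other neighbours overlapped. Nrp1 exceeded Nrp2 in 4 of 6 libraries, and Vegfb exceeded Vegfa in 4 of 6. Kdr exceeded Flt1 in 5 of 6 libraries, all but WT replicate 1. Per exonic length, both abundant ligands and both neuropilins were thus at least 3.74 times above Kdr in every library, the lowest such ratio being that of Vegfa in WT replicate 2.

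**Figure D4:**
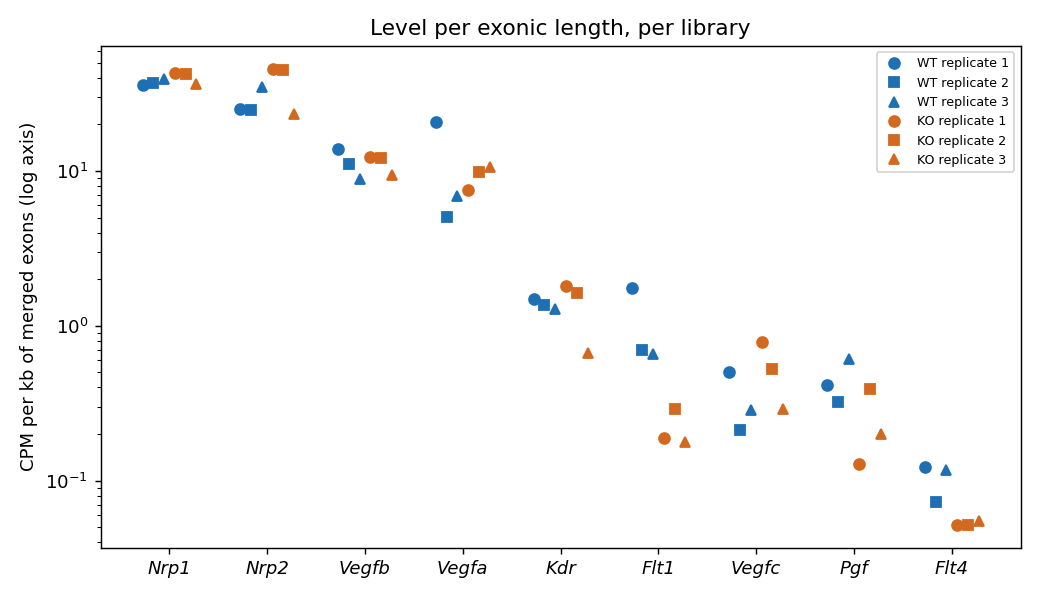
Level of each member in CPM per kb of merged exons, on a log axis, in the order of the mean over 6 libraries; WT is blue and KO orange, with a marker shape per replicate. The neuropilins lie between 23.5 and 45.8, Vegfb and Vegfa between 5.07 and 20.8, and the receptor kinases between 0.0518 and 1.81 CPM per kb.

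Among VEGF partners (the remaining ligand, processing enzymes, semaphorins, plexins and other binding proteins), 5 of 17 tested genes rose and none fell, against 4.39% and 2.25% of all tested genes. The log2 fold changes had a median of 0.24. The summed level of the list had the opposite direction, with a WT mean of 5061 ± 484 and a KO mean of 3996 ± 332 CPM. Most of that sum was Lrp1, an endocytic receptor named here after its values were seen, whose WT mean was 3791 ± 420 and whose KO mean was 2501 ± 176 CPM. It did not pass the test (adjusted p = 0.077, log2 fold change -0.60). Plxna2, a plexin through which neuropilins signal, rose from 6.87 ± 0.904 to 17.3 ± 0.915 CPM (adjusted p = 0.0048), and all KO libraries were above all WT libraries. Sema4d, a transmembrane semaphorin, rose from 130 ± 19.5 to 248 ± 49.4 CPM (adjusted p = 0.021) and Sema6d rose from 3.79 ± 0.551 to 9.31 ± 3.53 CPM (adjusted p = 0.036). Ptprj, a phosphatase that acts on VEGFR2, rose by a log2 fold change of 0.48 (adjusted p = 0.045), with the opposite sign under library sizes alone. The fifth, Plxna4, lies outside the naming rule and was chosen after its values were seen (log2 fold change 1.33, adjusted p = 0.049). Adamts3 and Ccbe1, which process VEGF-C, and Sema3a, Sema3d and Sema3e were too low to test.

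In VEGF signal transduction, a set of general kinases and adaptors that other receptors use too, 4 of 45 tested genes rose and 1 fell, with a median of 0.10. For this list and those that follow, the counts stand beside 4.39% of all tested genes higher and 2.25% lower, and counts this small are read as descriptions of single genes. Src, a membrane-bound tyrosine kinase, rose from 5.01 ± 1.76 to 30.8 ± 12.9 CPM (adjusted p = 0.0082), with 38.2, 38.2 and 15.9 CPM in KO replicates 1 to 3. Prkcb, a protein kinase C, rose from 56.9 ± 6.47 to 113 ± 14.9 CPM (adjusted p = 0.0086). Pik3r2, a regulatory subunit of phosphoinositide 3-kinase, and the kinase Akt2 rose by log2 fold changes of 0.62 and 0.51, the latter with the opposite sign under library sizes alone.

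Of 24 tested genes that control Vegfa transcription or mRNA stability, Sp3, a GC box binding factor, fell (log2 fold change -0.57, adjusted p = 0.043) and none rose. Of 24 tested hypoxia targets 2 rose, Vldlr, a lipoprotein receptor (log2 fold change 2.99, adjusted p = 0.0084) and Pfkfb4, an enzyme of the Pfkfb3 family (0.65, adjusted p = 0.043). The medians of these lists were -0.02 and -0.08.

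Of 18 tested genes known to be induced by VEGF in endothelial cells, a list that holds Pgf, 2 rose and 3 fell. Dll4, a Notch ligand of sprouting vessels, fell from 1.69 ± 0.559 to 0.153 ± 0.206 CPM (adjusted p = 0.041), with no count in KO replicate 1. Nr4a2, an immediate early transcription factor, fell by 0.93 on the log2 scale and Plaur, the urokinase receptor, fell by 0.77. Mmp14, a membrane-bound matrix metalloproteinase, rose from 158 ± 35.6 to 376 ± 66.4 CPM and Hlx, a homeobox gene, rose from 45.5 ± 9.37 to 84.0 ± 8.66 CPM (adjusted p = 0.012 and 0.022). Of the 17 pathway genes that changed and met the naming rule, Plxna2, Src, Prkcb and Vldlr kept their call without any 1 library, and the other 13 lost it in at least 1 such fit, with adjusted p of up to 0.21.

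Markers of other cells differed between the groups as well. The summed fibroblast list was at 14.2 to 52.1 CPM in WT and 170 to 224 CPM in KO, with 7 of 11 tested genes higher. The satellite cell and myoblast list was at 15.6 to 23.2 CPM in WT and 81.8 to 128 CPM in KO, with 4 of 7 higher. Of the lymphatic list, 2 of 8 genes were tested, Pdpn and Lyve1, both of which macrophages also express and both of which fell, while Prox1, the defining lymphatic factor, was at 0.03 to 1.16 CPM. Pericyte and smooth muscle markers summed to 77.8 to 150 CPM in WT and 63.9 to 158 CPM in KO. Of their 7 tested genes 1 rose and 0 fell. Neutrophil markers summed to 42.0 to 80.7 CPM in WT and 43.3 to 73.4 CPM in KO, with Ly6g at 0 in all libraries. Of 4 tested neutrophil genes 0 rose and 1 fell, with a median log2 fold change of -1.59. Lymphocyte markers summed to at most 7.22 CPM and dendritic cell markers to 7.63 to 18.3 CPM in all libraries. The part of these cells in the levels of the VEGF genes was not tested.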

How the data were processed

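The authors deposited 1 table of raw whole-number read counts per gene with a column per library. Trim Galore, FastQC, HISAT2, featureCounts and DESeq, with build GRCm38, are named in the submitters' processing notes without versions or roles. Neither the annotation nor whether counting used strand is given in the sources used here. The 26 rows whose symbol had become a calendar date (0.0913% to 0.163% of counts) were left out. Columns were matched to samples by title and groups were taken from the genotype label; replicates were numbered in sample record order. Genes passing filterByExpr were tested in edgeR 4.0.16 (R 4.3.3; TMM, glmQLFit and glmQLFTest, two-sided, no covariate), with Benjamini-Hochberg adjustment over all genes. The procedure was also run on simulated counts. There all libraries had the same gene shares apart from the changes put in, so scaling for the unequal share of Gm23935 was not tested. Intervals are 95% intervals of the fitted log2 fold change. Alternatives included DESeq2 1.42.0 and limma 3.58.1 voom with sample weights. Positions and exon lengths came from GENCODE M21 by symbol, and promoter windows from RefSeq (GRCm38.p6), which matched all 9 members. Outside the members, named genes were Pfkfb3, 4 endothelial and 4 macrophage markers, up to 4 called genes per direction from each pathway list, and the 5 genes most like a member; others (such as Vegfd) illustrate a list. The values of 1 gene that met this rule are not reported here. The members and lists were chosen with earlier results of these data known.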

Additional observations from a re-analysis of the deposited data

How the results depend on the processing

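Of 17 alternatives, 2 were chosen after seeing the data (KO replicates 1 and 2 left out, or summed). The count of changed genes, 995 over all libraries, was 6308 with library sizes alone (300 higher, 6008 lower), 1957 with no count filter, 1495 with a sex term, 1870 with DESeq2, 4850 with limma-voom, 282 with KO replicates 1 and 2 summed, 149 with both left out and 189 to 1652 with 1 library left out. The count of changed members was 1 over all libraries and 0 to 2 with 1 library left out. With library sizes alone it was 5 (Flt1, Flt4, Nrp1, Pgf and Vegfb, all lower), where 42.1% of all tested genes were called. With limma-voom it was 3 (Flt1, and Nrp2 and Vegfc higher), where 32.4% of all tested genes were called. With a sex term it was 1, but Kdr in place of Flt1, where 9.98% of all tested genes were called. The mean summed endothelial level differed by -93.7 CPM, by -169 CPM with library sizes alone and by -116 to -53.8 CPM with 1 library left out. A block on the replicate number, which follows sample record order, left 267 changed genes and 0 members (Flt1 edgeR adjusted p = 0.055). Same-numbered libraries correlated at -0.02, -0.13 and -0.24 in their deviations from the group means. No library correlated best with the library of its own number. The labels state no pairing, and correlations over so few libraries cannot settle whether the numbers pair the samples. Signs turned for Vegfa without WT replicate 1 (0.64), with the block (0.067) and with limma-voom (0.56; -0.57 to 0.64 with 1 library left out), and for Kdr without WT replicate 1 (0.052), without KO replicate 3 (0.33) and with limma-voom (0.26; -0.28 to 0.33 with 1 library left out). Vegfb, at 0.01, moved to -0.61 with library sizes alone, -0.25 with a sex term, -0.30 with KO replicates 1 and 2 left out, -0.064 with them summed, -0.038 with no filter, -0.0054 with DESeq2 size factors, -0.0052 with DESeq2, -0.0058 with protein-coding genes alone and -0.14 to 0.19 with 1 library left out. Vegfc turned with a sex term (-0.19) and with KO replicates 1 and 2 left out (-0.25). With library sizes alone, a sex term and KO replicates 1 and 2 left out, Nrp1 was at -0.49, -0.022 and -0.076, and Nrp2 at -0.18, -0.27 and -0.33. Pfkfb3 was at -0.50 with library sizes alone, -0.0043 without WT replicate 1, -0.56 without KO replicate 3, -0.059 with the block, -0.56 to 0.33 with 1 library left out, and was called in opposite directions with limma-voom (-0.65, adjusted p = 0.015) and a sex term (0.92, adjusted p = 0.030). Library sizes alone also turned Adgre1 (-0.082), Mertk (-0.20), Ptprj (-0.13) and Akt2 (-0.11). The cause of these turns was not tested. Over the members 114 of 151 values under alternatives kept their sign and side of the threshold. Depth limits Vegfc, Pgf and Flt4, with at most 60 counts per library.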
